A study of Mus musculus with 50 samples.

Results

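Mouse embryonic stem cells that lack G9a, Suv39h1 and Suv39h2 were compared with cells that lack G9a alone, which asks what the loss of Suv39h1/2 adds to the loss of G9a. The comparison set the 2 G9a;Suv39h1/2-TKO libraries (triple knockout, called TKO below) against the 2 G9a-KO libraries. Every gene at 1 TPM or more in at least 2 of these 4 libraries was included, which gave 12369 genes of the 24412 listed. TPM is a relative transcript level, scaled to transcript length and to the library total. The cells are of the TT2 strain, polyadenylated RNA was sequenced, and every genotype was represented by 2 libraries. TPM keeps no trace of the number of reads, so the depth behind each value is unknown. Control cells and Suv39h1/2-DKO cells (double knockout, with G9a present) gave the same contrast on a background with G9a. A second pair of genotypes that differ by Suv39h1/2 was G9a;Suv39h1/2;Setdb1-QKO (quadruple knockout, QKO) against G9a;Setdb1-DKO, both of which lack Setdb1 in addition. The titles mark all groups that lack Setdb1, these 2 and the Dux-KO QKO among them, as OHT and the others as NT. What the terms mean is not said. Another was G9a;Suv39h1/2-TKO against G9a-KO in cells that lack Dux and carry a doxycycline-inducible Dux transgene, sampled without doxycycline and called the Dux-null lines here. The titles name 1 line for control (33-6), 1 for Suv39h1/2-DKO (SE), 1 for G9a-KO and G9a;Setdb1-DKO (SG) and 1 for TKO and QKO (3S1G). Every contrast for Suv39h1/2 is thus one between lines, and line and Suv39h1/2 genotype cannot be told apart. Setdb1-KO (33-6 line) and Suv39h1/2;Setdb1-TKO (SE line), both marked OHT, were fitted together with these groups. The labels do not say how the lines were derived from one another. The labels do not say whether the 2 libraries of a group came from separate cultures, and p-values then measure the spread between these libraries, which may be technical.

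G9a, encoded by Ehmt2, forms a complex with GLP and places mono- and dimethyl groups on lysine 9 of histone H3 (H3K9) in euchromatin. Suv39h1 and Suv39h2 trimethylate the same residue, mainly at pericentromeric heterochromatin and repeats, where HP1 proteins bind the mark. Setdb1 is brought to endogenous retroviruses by Trim28 and KRAB zinc finger proteins. In embryonic stem cells H3K9 methylation keeps germline genes, among them the X-linked Mage-a genes, and genes of the 2-cell embryo silent.

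More genes were lower than higher in TKO cells than in G9a-KO cells. Of the 12369 genes, 153 fell (1.24%) and 70 rose (0.566%), so that 1.8% were called. A call asked for a limma p below 0.05 after Benjamini-Hochberg adjustment and a change of 1 or more, in either direction, on the log2(TPM + 1) scale. The median log2 fold change of all genes was 0.03. By their medians, the genes that fell were low with G9a present and high in G9a-KO: the median level was 1.5 TPM in control, 0.913 TPM in Suv39h1/2-DKO, 17.7 TPM in G9a-KO and 4.98 TPM in TKO. For the genes that rose the medians were 7.05, 8.20, 3.30 and 7.84 TPM in the same order. The G9a-KO libraries enter the choice of these genes, so the control and Suv39h1/2-DKO levels are given only side by side with them. Chromosome X held 44 of the genes that fell and chromosome 14 held 34, while 69 lay elsewhere and 6 had no position in the annotation. With a pseudocount of 0.1 TPM in place of 1 TPM the counts were 272 lower and 277 higher, so that the excess of losses (31.4% of calls higher) did not hold there (50.5%).

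**Figure D1:**
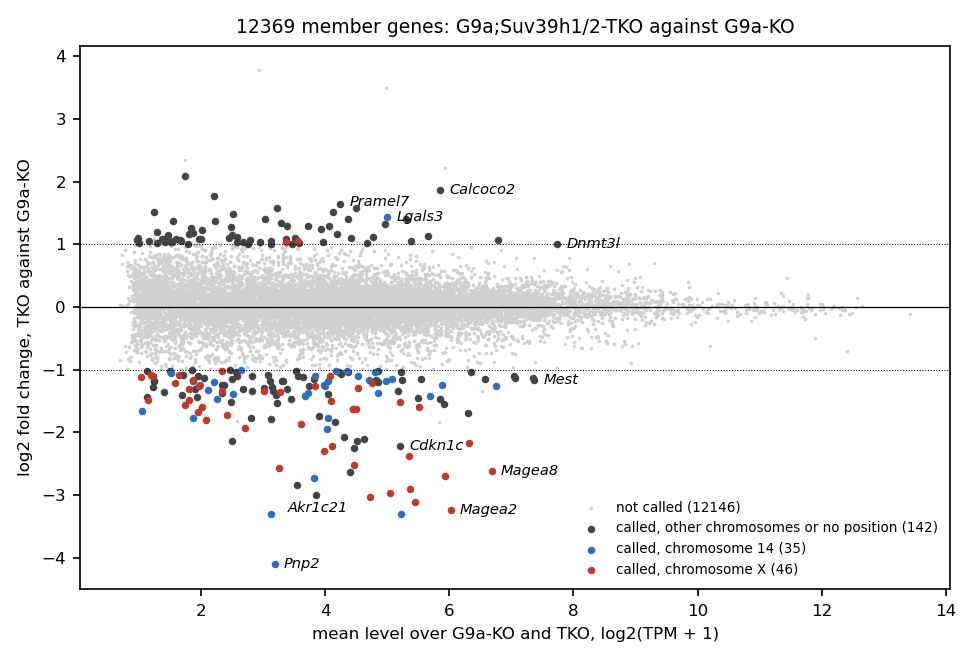
Each point is a gene, with its mean level over the 4 libraries on the x axis (log2(TPM + 1)) and its log2 fold change in TKO against G9a-KO on the y axis; coloured points were called and dotted lines mark a log2 fold change of 1 in either direction. The lowest 3 called genes are Pnp2, Tmem254b and Rpph1 of chromosome 14, followed by Magea2, and the grey points above 2 (Amd1, Atp6v0c-ps2, Hotairm1 and Eif3j1) did not pass the test.

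The targeted genes gave the following check of the labels. Suv39h1 stood at 27.4 and 26.3 TPM in the G9a-KO libraries and at 14.3 and 12.8 TPM in the TKO libraries, a log2 fold change of -0.93 (SE 0.13, limma adjusted p = 0.000268). Suv39h2 stood at 18.6 and 21.1 TPM against 12.1 and 13.4 TPM (log2 fold change -0.60). Transcript was therefore left for both genes, the groups did not overlap for either, and neither change reached the size asked for a call; the sources used here do not give the exons that were removed. Ehmt2 stood at 83.6 and 91.1 TPM in control, at 15.6 and 14.6 TPM in G9a-KO and at 30.2 and 22.7 TPM in TKO, so that both groups were below control and TKO was above G9a-KO (log2 fold change 0.76, SE 0.13). Setdb1 did not pass the test (log2 fold change 0.04). Of 27 H3K9 methylation and HP1 genes none was called, and their median was 0.02.

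All 6 embryonic stem cell markers were above 1 TPM in all libraries of these groups, and their summed level was 3463 to 3475 TPM in G9a-KO and 3873 to 3969 TPM in TKO. The 6 primitive endoderm markers summed to 42.6 to 46.3 TPM in control and 75.9 to 80.6 TPM in Suv39h1/2-DKO. Their sums were 271 to 296 TPM in G9a-KO and 245 to 268 TPM in TKO. Over the 9 primitive endoderm transcription factors the median log2 fold change in TKO against G9a-KO was -0.02. The lowest of them was Gata4 (-0.50), which lies on chromosome 14, where the median of all genes was -0.50 as well. Whether the lower sum in TKO goes beyond that shift of chromosome 14 was not tested. The 4 trophoblast markers summed to 0.804 to 1.14 TPM in G9a-KO and 2.81 to 2.93 TPM in TKO. The 6 fibroblast markers summed to 2.35 to 2.36 TPM and 2.77 to 3.27 TPM, with Postn at 0 in G9a-KO and Col3a1 at 0 in TKO. The 4 markers of 2-cell-like cells summed to 166 to 178 TPM in G9a-KO and 82.2 to 97.3 TPM in TKO. In bulk RNA, fewer cells of a type and less RNA per cell cannot be told apart.

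The Mage-a genes encode cancer-testis antigens, proteins made in the male germ line and in tumours. Magea2 was listed at 0 in both control and both Suv39h1/2-DKO libraries. It reached 103 and 129 TPM in G9a-KO and 10.1 and 12.8 TPM in TKO (log2 fold change -3.24, SE 0.18, limma adjusted p = 3.4e-08). The 2 G9a-KO libraries lay far above the 2 TKO libraries, and the TKO libraries far above control. Magea8 stood at 165 and 186 TPM in G9a-KO and at 26.4 and 29.3 TPM in TKO (log2 fold change -2.61). Magea3, Magea5 and Magea6 fell by 3.12, 2.7 and 3.04 on the log2 scale, from 72.1 and 83.1, 98.0 and 112, and 40.3 and 51.5 TPM. They ended at 7.2 and 8.96, 14.7 and 15.9, and 4.47 and 4.88 TPM. These 5 genes lie in one cluster of the distal X chromosome, the annotated span of Magea2 includes Magea5, and they are close copies. Reads may be split among copies, so that single-gene values are uncertain. Of the 9 Magea and Mageb members 7 fell, none rose, and the median was -2.61. Mageb16, which is already expressed in control, stood at 69.0 and 76.2 TPM against 68.9 and 87.0 TPM (log2 fold change 0.09). Mageb4 stood at 5.11 and 5.75 TPM against 2.76 and 3.64 TPM (log2 fold change -0.62) and was not called.

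Promoter windows of 250 bases before to 50 after the start site are shown for 2 Mage-a genes and 2 Xlr genes, as examples of neighbouring copies that moved together. They come from RefSeq (GRCm38.p6), run 5′ to 3′ along the gene's strand, and capitals mark each CG, the dinucleotide at which DNA is methylated. Their places are chrX:155033243-155033542 (minus strand) for Magea2, chrX:154995801-154996100 (minus) for Magea8, chrX:73082458-73082757 (minus) for Xlr4a and chrX:73214083-73214382 (plus) for Xlr4b.
Magea2: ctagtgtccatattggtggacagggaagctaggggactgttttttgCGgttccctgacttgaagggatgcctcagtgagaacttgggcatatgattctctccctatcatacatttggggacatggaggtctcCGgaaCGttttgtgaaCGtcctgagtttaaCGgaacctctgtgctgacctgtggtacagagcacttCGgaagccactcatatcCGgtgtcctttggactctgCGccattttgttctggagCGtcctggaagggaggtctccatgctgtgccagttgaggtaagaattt
Magea8: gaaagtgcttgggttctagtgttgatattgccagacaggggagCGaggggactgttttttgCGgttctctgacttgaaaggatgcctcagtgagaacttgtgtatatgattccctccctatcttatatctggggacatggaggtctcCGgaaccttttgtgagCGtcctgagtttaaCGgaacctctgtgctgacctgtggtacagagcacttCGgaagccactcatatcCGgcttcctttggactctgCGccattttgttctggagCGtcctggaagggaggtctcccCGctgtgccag
Xlr4a: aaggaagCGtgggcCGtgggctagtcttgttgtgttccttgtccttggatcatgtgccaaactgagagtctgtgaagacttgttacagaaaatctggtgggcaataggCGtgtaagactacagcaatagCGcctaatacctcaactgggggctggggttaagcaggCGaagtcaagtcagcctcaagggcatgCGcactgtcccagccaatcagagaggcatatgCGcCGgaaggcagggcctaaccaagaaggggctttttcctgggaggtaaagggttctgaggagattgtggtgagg
Xlr4b: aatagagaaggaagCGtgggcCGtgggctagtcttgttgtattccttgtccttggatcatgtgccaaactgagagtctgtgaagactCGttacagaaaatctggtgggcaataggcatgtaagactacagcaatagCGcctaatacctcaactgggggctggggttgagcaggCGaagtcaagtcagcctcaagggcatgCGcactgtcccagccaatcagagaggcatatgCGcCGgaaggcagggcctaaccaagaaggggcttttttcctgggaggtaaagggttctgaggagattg

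Magea2 and Magea8 held 9 and 10 CG, and in a global alignment 264 of 300 bases were identical. Xlr4a and Xlr4b held 8 each and shared 288 bases. The similarity did not run through all the genes that fell: Magea2 shared 180, 191 and 188 bases with Magea3, Magea5 and Magea6, which held 0, 0 and 1 CG, and 179 bases with the unrelated Xlr4a. Windows were found for 38 of the 44 X-linked genes that fell, with a median of 7 CG (0 to 20). The median was 9 CG in 44 other X-linked genes under 1 TPM in control, 16 in the 364 other X-linked genes and 21 in 9409 of all 12369 genes. CACGTG, the canonical E-box, which is its own reverse complement, was in none of the 38 windows. It was in 11.4% of those of the 44 other X-linked genes under 1 TPM in control. In the other X-linked genes it was in 12.9%, and in all windows in 10.6%. The motif itself holds a CG, and windows of close copies such as Xlr4a and Xlr4b are not independent. The CG and CACGTG counts are descriptions of these windows.

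The Xlr and Rhox families are further X-linked multicopy families, expressed in lymphoid and germ cells and in reproductive tissue. Of their 17 members 11 fell, none rose, and the median was -1.26. Xlr3c fell from 56.4 and 58.3 TPM to 6.52 and 6.47 TPM (log2 fold change -2.96, SE 0.13, limma adjusted p = 3.8e-09). Xlr5a fell from 34.7 and 38.5 TPM to 5.70 and 5.35 TPM, and Xlr5b and Xlr5c fell by 2.38 and 2.90 on the log2 scale. Xlr3a and Xlr3b fell less, by 1.51 and 1.59, and Xlr4a, Xlr4b and Xlr4c by 1.29, 1.21 and 1.26. Xlr4c stood at 18.2 and 19.6 TPM against 5.66 and 9.33 TPM and fell under the size asked for without TKO replicate 1 (-0.95). Pnma5, a paraneoplastic antigen gene in the same cluster (chrX:73033981-73037103), fell from 24.9 and 25.3 TPM to 4.51 and 4.16 TPM. Gm14685, between the Xlr genes, fell by 2.57. The Xlr genes are close copies as well, and the annotated span of Xlr5a includes Xlr5b and Xlr5c.

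Rhox2a, a reproductive homeobox gene, was listed at 0 in control and Suv39h1/2-DKO and stood at 34.7 and 31.3 TPM in G9a-KO against 11.3 and 8.86 TPM in TKO. Rhox9 fell by 1.03, and by 0.84, short of a call, without G9a-KO replicate 1. Rhox5, the founding member of the family, behaved otherwise: it stood at 14.7 and 14.6 TPM in control, 33.8 and 35.5 TPM in Suv39h1/2-DKO, 391 and 376 TPM in G9a-KO and 286 and 267 TPM in TKO. It was thus higher in Suv39h1/2-DKO than in control (log2 fold change 1.19, called) and lower in TKO than in G9a-KO (-0.47, not called by size). The difference between these changes was -1.66 (limma adjusted p = 8.5e-05).

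**Figure D2:**
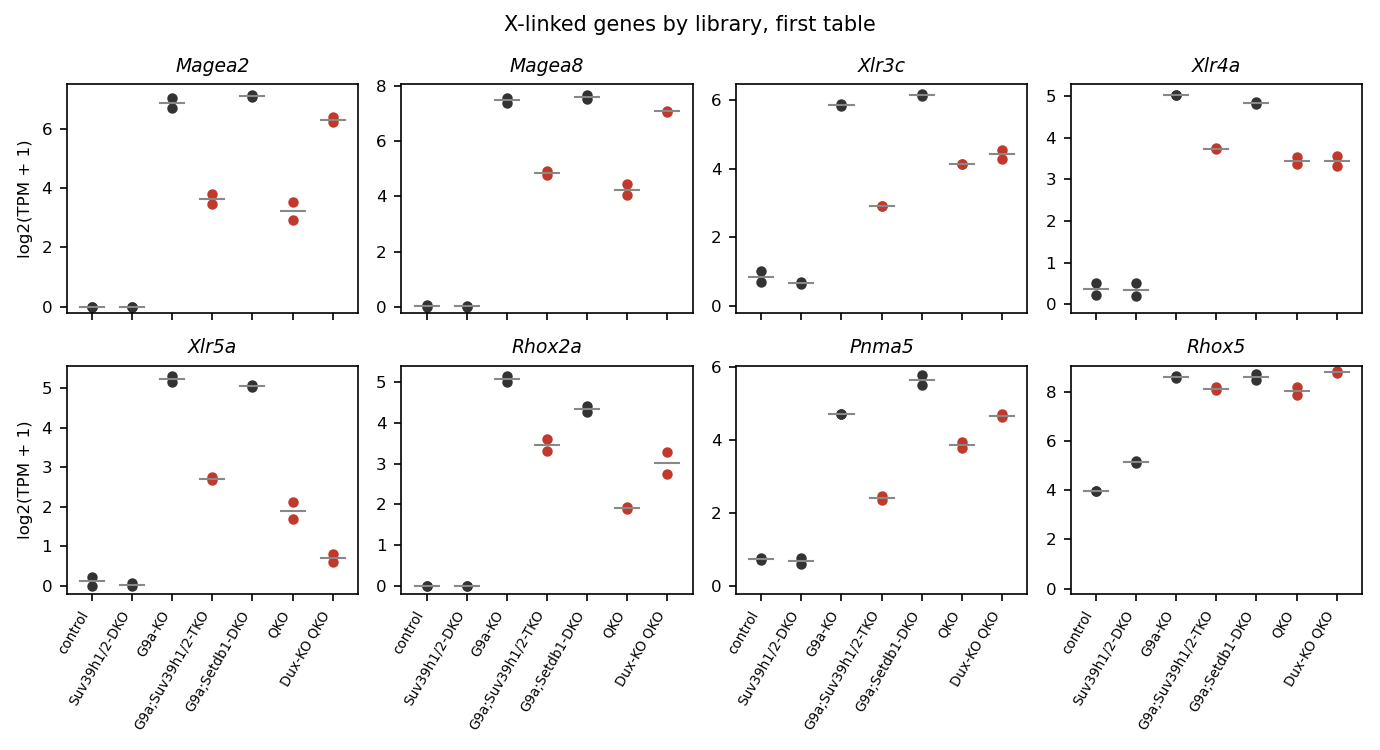
Levels of 8 X-linked genes in log2(TPM + 1), 1 point per library and a bar at the mean of the 2 libraries, for 7 genotypes of the first table; red marks genotypes that lack both G9a and Suv39h1/2. TKO lies between control and G9a-KO for every gene drawn, and Magea2 and Magea8 are high again in Dux-KO QKO while Xlr5a is not.

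Of the 44 X-linked genes that fell, 41 were under 1 TPM in control. Of 92 X-linked genes under 1 TPM in control 41 fell and none rose, with a median of -0.84. Of 370 X-linked genes at 1 TPM or more in control 3 fell and 2 rose, with a median of -0.03. On the autosomes other than chromosome 14, 20 of 639 genes under 1 TPM in control fell and 11 rose, with a median of -0.04. These sets differ in level: the median in G9a-KO was 3.18 TPM for the 92 X-linked genes and 1.496 TPM for the 639 autosomal genes. By these medians the autosomal genes had less room to fall by the size asked for. Sets matched for level in G9a-KO were not compared. A gene that is under 1 TPM in control is included here because at least 2 of the 4 knockout libraries were at 1 TPM or more. Of the 41, 8 were under 1 TPM in both TKO libraries and had to differ to be included. The median level of the 41 was 0.0835 TPM in control, 0.0874 TPM in Suv39h1/2-DKO, 18.9 TPM in G9a-KO and 4.34 TPM in TKO.

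With G9a present, the 5 Mage-a genes and the 9 Xlr genes named above stood at 1.19 TPM or less in the control and Suv39h1/2-DKO libraries. Suv39h1/2-DKO against control gave 19 genes higher (0.137%) and 56 lower (0.404%) of 13862 tested, 0.541% in all. The difference between backgrounds, (TKO minus G9a-KO) minus (Suv39h1/2-DKO minus control), was called for 280 genes (2.02%), 128 of them higher (0.923%) and 152 lower (1.1%). It was lower for 7 of the 9 Magea and Mageb members and for 11 of the 17 Xlr and Rhox members, and for 90 of the 153 genes that fell. Of the 70 genes that rose 36 also had a higher difference. The same 4 knockout libraries enter the change and the difference, so that these counts are not independent of the calls. Of the called losses 18 were also called lower in Suv39h1/2-DKO against control, 11.8% of one list and 32.1% of the other, and 2 of the gains were shared.

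QKO against G9a;Setdb1-DKO, a comparison added after seeing the data, shares no library with the first but sets the same lines against each other (3S1G and SG), so that a difference between the lines would enter both. It gave 202 genes higher (1.46%) and 248 lower (1.79%), 3.25% in all. The same 7 Magea and Mageb members fell there, with a median of -3.29 over the 9, and 12 of the 17 Xlr and Rhox members fell. Magea2 stood at 139 and 133 TPM in G9a;Setdb1-DKO and at 6.59 and 10.7 TPM in QKO. Of the 44 X-linked genes that fell in TKO 35 also fell in QKO. Over all chromosomes 72 of the 153 losses were shared (47.1%; 29% of the QKO list), and 19 of the 70 gains (27.1%; 9.41%).

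The Dux-null lines gave other values for the Mage-a genes. There 89 genes were higher (0.644%) and 92 lower (0.666%) in TKO than in G9a-KO, of 13817 tested, 1.31% in all. None of the 9 Magea and Mageb members was called and their median was 0.22: Magea2 stood at 70.4 and 91.5 TPM in G9a-KO and 105 and 83.6 TPM in TKO, overlapping ranges. These counts rest on single libraries: without TKO replicate 2 the genes higher numbered 38, without TKO replicate 1 the genes lower numbered 48, and without G9a-KO replicate 2 the counts were 51 and 53. Xlr5a, Xlr5b and Xlr5c fell there too, by 1.57, 1.41 and 1.55, and the other 14 Xlr and Rhox members were not called (median of all 17, -0.29). In Dux-KO QKO cells of the first table, Magea2 stood at 73.4 and 82.6 TPM and Magea8 at 132 and 135 TPM, against 6.59 and 10.7 TPM and 15.6 and 20.6 TPM in QKO, while Xlr5a stood at 0.526 and 0.746 TPM. The lines differ by name as well as by Dux, and the difference between the lines was not tested. Over all chromosomes 21 losses were shared between the 2 tables (13.7% of 153, 22.8% of 92), 11 of them on chromosome 14 and 5 on X, and 10 gains (14.3% of 70, 11.2% of 89). The log2 fold changes of 12298 genes correlated across the 2 tables with Pearson's r of 0.35, given as a description.

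Losses on chromosome 14 came with a shift of the whole chromosome. Its 420 genes had a median log2 fold change of -0.50, 384 of them (91.4%) were below 0, 34 fell and 1 rose (8.33% called). Chromosome medians elsewhere lay between -0.09 (X) and 0.07 (chromosome 7). The shift ran along the whole chromosome: in 11 bins of 10 Mb with at least 10 genes the medians lay between -0.71 and -0.44. By cell line, against control and relative to other chromosomes it was -0.52 to -0.39 in the 6 libraries of 3S1G lines in the first table and -0.04 to -0.01 in the 4 SE libraries. In the Dux-null lines it was -0.53 to -0.49 in the 4 SE libraries and -0.56 to -0.45 in the 4 3S1G libraries, and there chromosome 8 was raised by 0.53 to 0.55 and 0.36 to 0.38. In both tables the SE libraries were of Suv39h1/2-DKO and Suv39h1/2;Setdb1-TKO, and the 3S1G libraries included QKO. DNA copy number was not measured, and its part in the losses on chromosome 14 was not tested. Without the genes of chromosome 14 the test gave 69 higher and 119 lower.

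**Figure D3:**
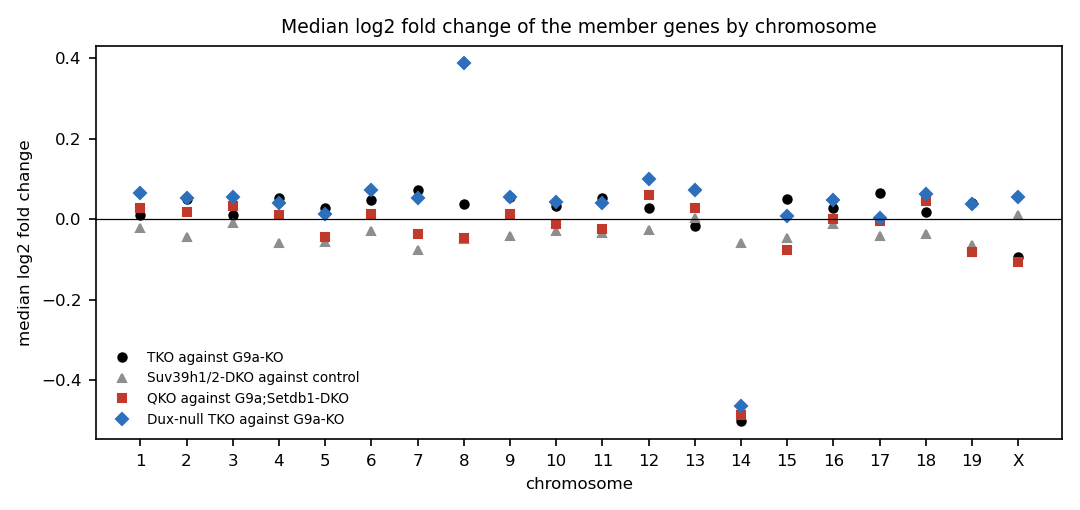
Median log2 fold change (y axis) of the genes of each chromosome (x axis) in 4 comparisons; points are medians and carry no error. Chromosome 14 lies between -0.50 and -0.46 in the 3 comparisons of 3S1G with SG lines and at -0.06 in Suv39h1/2-DKO against control, and chromosome 8 is raised (0.39) in the Dux-null lines.

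Some genes of chromosome 14 went beyond that shift. Pnp2, a purine nucleoside phosphorylase gene (chr14:50955992-50964749), was listed at 16.5 and 16 TPM in G9a-KO and at 0 in both TKO libraries, and stood at 36.3 and 36.7 TPM against 0.0965 and 0.0882 TPM in the Dux-null lines. With G9a present it stood at 13.9 to 20.4 TPM in the control and Suv39h1/2-DKO libraries of the first table. In the Dux-null lines it stood at 20.7 and 20.1 TPM in control and was listed at 0 in both Suv39h1/2-DKO libraries, which are of the SE line. Rpph1, the RNA component of RNase P, which has no poly(A) tail, stood at 17.3 and 12.1 TPM against 1.48 and 0 TPM. Tmem254b (76.1 and 40.7 against 27.8 and 0.143 TPM) and Cphx2 (21.0 and 21.5 against 0 and 10.3 TPM) were called, but the TKO libraries disagreed and both belong to families of close copies. Tmem254b lost its call in 6 of 11 alternatives (-0.98, limma adjusted p = 0.308, without TKO replicate 2) and Cphx2 in 5 (-0.98, limma adjusted p = 0.145, without TKO replicate 1). Plac9b fell by 1.37. Gata4, a primitive endoderm transcription factor, stood at 94.6 and 83.4 TPM against 66.3 and 58.8 TPM (-0.50, the chromosome's median). Lgals3, which encodes galectin-3, was the gene that rose: it stood at 17.6 and 14.8 TPM in G9a-KO and 46.1 and 45 TPM in TKO (log2 fold change 1.44, SE 0.12).

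Genes of the 2-cell embryo, many of which the transcription factor Dux activates and which mark the rare 2-cell-like cells of embryonic stem cell cultures, held losses on both backgrounds. Of 40 members 7 fell and 1 rose in TKO against G9a-KO, with a median of -0.38. These 7 were Usp26, Duxbl2 and Duxbl3, which carry the same values, and near-identical Zscan4 copies. The 7 are therefore not separate measurements. With G9a present 14 of the 40 members fell and none rose, with a median of -0.74. Zscan4f, of the family that extends telomeres in 2-cell-like cells, stood at 32.4 and 38.2 TPM in control and 2.39 and 3.46 TPM in Suv39h1/2-DKO. It stood at 173 and 185 TPM in G9a-KO and 80.9 and 85.2 TPM in TKO (log2 fold change -1.10, SE 0.14). It was lower without Suv39h1/2 on both backgrounds, and the difference between them was 2.12 (limma adjusted p = 2.9e-05), the loss on the G9a-KO background being the smaller. The summed 2-cell-like markers above include genes of this family and are no separate measure.

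Zscan4a, Zscan4b and Zscan4d fell by 1.02, 1.15 and 1.04, and Zscan4c stood at 97.9 and 107 TPM against 48.9 and 55.3 TPM (-0.96), just under the size asked for. Without TKO replicate 1 or without G9a-KO replicate 2, Zscan4a and Zscan4d fell short of that size too. All 5 Zscan4 genes fell in Suv39h1/2-DKO against control. They are near-identical copies and may share reads. Gm2016 and Gm5662 fell by 2.34 and 2.27 in Suv39h1/2-DKO against control and did not pass the test in TKO against G9a-KO (0.27 and 0.11), with differences of 2.61 and 2.38. In all, the difference was higher for 12 of the 40 members and lower for 1. The homeobox gene Obox4 stood at 37.1 and 35.0 TPM against 30.5 and 29.2 TPM (-0.26). Dux itself was at 2.76 and 2.91 TPM in G9a-KO and 1.77 and 1.84 TPM in TKO (log2 fold change -0.45, not called by size).

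Unlike the Zscan4 genes, the remaining called members of this list were not called in Suv39h1/2-DKO against control. Pramel7, which promotes turnover of the DNA methylation factor UHRF1, rose from 8.12 and 8.09 TPM to 26.0 and 29.2 TPM (log2 fold change 1.65, SE 0.12, limma adjusted p = 5.91e-07), from 0.403 and 0.363 TPM in control. Usp26, an X-linked deubiquitinase gene of the testis, fell from 3.95 and 5.84 TPM to 0.786 and 0.857 TPM. Duxbl2 and Duxbl3 carry the same values in every library and count as one measurement, 4.55 and 3.57 TPM against 1.08 and 1.37 TPM. In QKO against G9a;Setdb1-DKO 17 of the 40 members were higher and 1 lower, with a median of 0.94. In the Dux-null lines 5 of 39 rose, none fell, and the median was 0.80. Zscan4f stood there at 9.37 and 9.67 TPM in G9a-KO and 32.6 and 25.1 TPM in TKO.

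**Figure D4:**
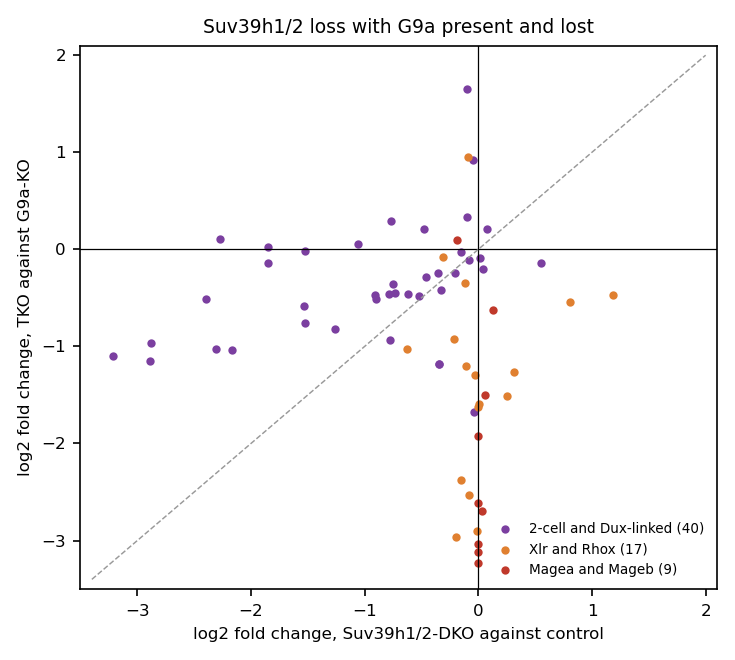
Each point is a gene of 3 lists, with its log2 fold change in Suv39h1/2-DKO against control on the x axis and in TKO against G9a-KO on the y axis (the 2 share no library); the dashed line marks equal change. The Magea genes and the 9 Xlr genes named above lie low at an x near 0, and the Zscan4 genes lie far to the left above the dashed line.

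Imprinted genes, expressed from 1 parental allele, held 4 losses and no gain among 42 members, with a median of -0.17. Cdkn1c, the cell cycle inhibitor p57 (chr7:143458339-143461050), fell from 64.3 and 55.3 TPM to 13.6 and 10.7 TPM (log2 fold change -2.21, SE 0.15, limma adjusted p = 5.28e-07). It fell with G9a present as well, from 18.1 and 14.2 TPM to 7.06 and 6.45 TPM (-1.14), and the difference was -1.08. The long non-coding RNAs Meg3 and Rian, neighbours on chromosome 12, were at or near 0 in control. They fell from 69.7 and 59.7 TPM to 25.2 and 21.0 TPM and from 80.6 and 86.1 TPM to 29.2 and 29.6 TPM. In the Dux-null lines they stood instead at 0.777 and 0.795 against 3.80 and 4.37 TPM (Meg3) and 2.13 and 4.78 against 15.7 and 14.9 TPM (Rian), and were not called. Mest fell from 221 and 235 TPM to 95.5 and 107 TPM. Gnas (346 and 330 against 279 and 242 TPM) and Peg10 (178 and 212 against 166 and 201 TPM) were not called.

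Other losses were spread over the autosomes. Akr1c21, a hydroxysteroid dehydrogenase gene (chr13:4574075-4586541), stood at 23.7 and 25.3 TPM in G9a-KO and 1.79 and 2.63 TPM in TKO (log2 fold change -3, SE 0.15). It fell in the Dux-null lines too (-1.93) and rose in QKO against G9a;Setdb1-DKO (1.59). Clec2i, a C-type lectin gene, fell from 32.4 and 38.2 TPM to 4.09 and 5.76 TPM, with 0.209 and 0.365 TPM in control. Of 15 Nodal and BMP targets 2 fell: Id2, an inhibitor of helix-loop-helix factors, from 22.0 and 21.9 TPM to 5.41 and 6.34 TPM, and Lefty1, a Nodal antagonist, from 88.6 and 88.8 TPM to 32.8 and 27.0 TPM. Lefty1 fell by 1.15 with G9a present as well. Rpl39l, a germline ribosomal protein gene, fell by 1.13 against 1.10 with G9a present, a difference of -0.04 that did not pass the test. Single members fell in 5 other lists. The neural intermediate filament gene Nes (13.2 and 16.8 against 4.27 and 5.29 TPM) was 1 of 13 primed epiblast and germ layer genes. Dhrs3 of retinoid metabolism (-1.09) was 1 of 9 retinoic acid targets, and Hoxa10 (-1.0) 1 of 9 Hox genes. The zinc finger gene Zfp951 (-1.03) was 1 of 318 listed as Zfp. The histone gene Hist1h3e (-1.40), whose transcripts are mostly without a poly(A) tail, was 1 of 43 histone genes. Over all genes 1.24% fell, and these single calls are not results about the lists. The calls of Hoxa10, Zfp951 and Hist1h3e were lost without TKO replicate 1 and without G9a-KO replicate 2, that of Hist1h3e also without G9a-KO replicate 1, and that of Dhrs3 without G9a-KO replicate 1.

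Of 14 reported genes with the highest rise, leaving out predicted gene names, 11 were higher in both control libraries than in both G9a-KO libraries. The same G9a-KO libraries entered the choice of these genes, so this count is not independent of that choice. The share over all genes is not given here. Calcoco2, the autophagy receptor NDP52 (chr11:96099326-96111964), stood at 59.4 and 58.8 TPM in control, 22.6 and 25.1 TPM in G9a-KO and 87.8 and 91.0 TPM in TKO (log2 fold change 1.86, SE 0.11, limma adjusted p = 1.06e-07). It rose in the Dux-null lines by 2.40. Capg, an actin-capping protein gene, stood at 3.73 and 3.59 TPM against 12.0 and 14 TPM, and the actin nucleator gene Cobl at 18.9 and 22.6 against 54.2 and 58.6 TPM. Clgn, a chaperone of the male germ line, rose from 1.70 and 2.33 TPM to 7.06 and 7.81 TPM. Dnajc6, a clathrin-uncoating factor, rose by 1.51, the mitochondrial creatine kinase gene Ckmt1 by 1.41, and Inhbb, the activin beta-B subunit gene, by 1.40. Ppp2r2c and Plekhb1 rose by 1.37 and 1.34.

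For other genes that rose the order of TKO and control varied. Crxos, a homeobox gene, stood at 2.85 and 1.87 TPM in control, 10.2 and 10.3 TPM in G9a-KO and 30.9 and 34.8 TPM in TKO (log2 fold change 1.59, SE 0.20). Khdc3, of the maternal subcortical complex, rose from 19 and 14.7 TPM to 46.0 and 40.8 TPM. Dnmt3l, cofactor of the de novo DNA methyltransferases, rose from 145 and 137 TPM to 296 and 276 TPM (1.01), with 68.6 and 66.3 TPM in control. It fell short of the size asked for without TKO replicate 1 (0.96) or without G9a-KO replicate 2 (0.97) and under another scaling (0.97), and was the 1 called gene among 10 of DNA methylation. Cpe, a prohormone carboxypeptidase gene, rose by 1.16, close to its rise with G9a present (1.28). Nupr1, a stress-induced target of ATF4, rose from 31.4 and 29.9 TPM to 68.0 and 68.9 TPM, above the 39.7 and 38.7 TPM of control. Chac1, another ATF4 target, rose from 5.18 and 4.85 TPM to 14.5 and 13.2 TPM, just under the 15 and 14.6 TPM of control; they were 2 of 20 members of that list, whose median was 0.36. Gata3, a trophoblast transcription factor, rose from 0.292 and 0.227 TPM to 1.74 and 1.70 TPM, the 1 call among 13 trophoblast genes. The summed trophoblast markers given above include Gata3 and are no separate measure. Of those 4 markers, 1 was at 1 TPM or more in both TKO libraries. In the Dux-null lines Calcoco2, Pramel7, Ckmt1, Dnajc6 and Gata3 rose as well.

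**Figure D5:**
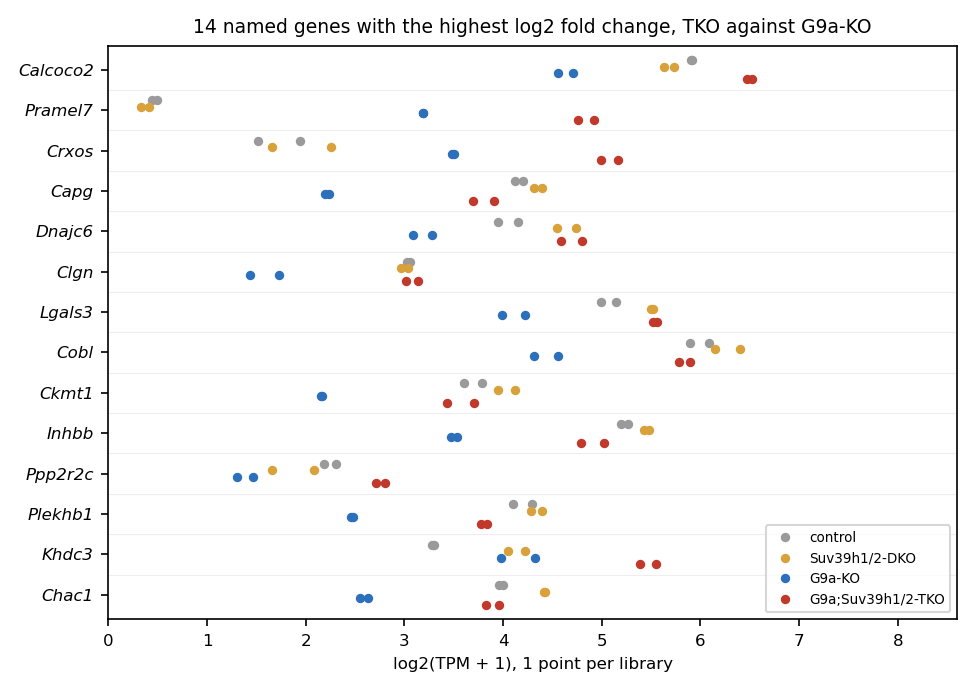
Levels of 14 genes in log2(TPM + 1), 1 point per library, in control, Suv39h1/2-DKO, G9a-KO and TKO; the genes are the reported ones of the highest log2 fold change, predicted gene names left out. The genes were chosen so that the red points lie right of the blue points, and the grey points lie right of the blue points in 11 of them. The blue points entered that choice, so the count of 11 is not independent of it.

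Several lists held no call, which at 1.8% called over all genes is near the background for lists of this size and is not a result about them. None of 25 naive pluripotency genes was called, with a median of 0.34: Pou5f1 stood at 1954 and 1956 TPM against 2007 and 1955 TPM, and Zfp42 had a log2 fold change of 0.48. None of the 9 primitive endoderm transcription factors was called (median -0.02), with Gata6 at 95.0 and 88.6 TPM against 96.0 and 94.5 TPM, nor any of 29 endoderm matrix and secretory genes (median -0.13), with Sparc at 701 and 594 TPM against 624 and 469 TPM. In QKO against G9a;Setdb1-DKO 3 of the 9 transcription factors fell (median -0.89) and in the Dux-null lines 3 of 9 (median -0.96). Of the 29 matrix and secretory genes 4 fell and 1 rose in the former, 4 fell in the latter, and 7 had a lower difference between backgrounds. In Suv39h1/2-DKO against control 6 of the 29 rose and none fell (median 0.55). The 9 transcription factors had a median of 0.64 there, with none called. None of 39 piRNA and meiosis genes (median 0.0037), 25 p53 targets (0.17), 20 Polycomb genes (0.01), 31 proteasome genes (0.01), 19 FGF and ERK targets (0.06), 20 genes of sterol synthesis (-0.16), 9 Wnt targets (0.15) or 13 interferon response genes (0.14) was called. Bst2, an antiviral tether, stood at 26.1 and 29.3 TPM against 17.1 and 15 TPM (-0.75), and its difference between backgrounds was called (-1.24). Trim28 stood at 852 and 838 TPM against 969 and 888 TPM. Bmp4, on chromosome 14, stood at 55.3 and 54.3 TPM against 67.0 and 61.1 TPM (0.22), and fell in the Dux-null lines (-1.5). With 2 libraries a group, a change smaller than the size asked for is not shown to be absent.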

How the data were processed

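The authors deposited TPM values, which RSEM gives, in 2 tables of 18 and 32 libraries; the labels call them raw counts, but the libraries sum to between 999663 and 999999 TPM. Per the submitters' processing notes, STAR 2.7.10b, Bowtie2 2.3.4.1, RSEM 1.3.1, SAMtools 1.9 and mm10 were used. Per the labels' protocols, stranded poly(A) libraries were read in pairs; depth is unknown. Groups come from the sample titles. For each table, limma 3.58.1 (R 4.3.3, trended eBayes) was fitted to log2(TPM + 1) of all its groups, over the 13862 and 13817 genes that reached 1 TPM in 2 or more libraries, with Benjamini-Hochberg adjustment; 2 rows of the second table that are transgenes were left out. Calls needed an adjusted p under 0.05 and a log2 change of 1 or more in size. Named genes were the targeted genes, the 15 called genes without overlap at each end (predicted names left out), up to 4 called and 2 uncalled members of each list, the 5 highest and 5 lowest differences, and called neighbours within 500 kb. Of these 151 genes the text reports 83. Dux, outside this rule, was chosen after its values were seen. The members and gene lists were chosen with earlier results of these data known. The QKO comparison and the runs without chromosomes 8 and 14 were added after seeing the data. Positions are from GENCODE M21 and promoters from RefSeq (Biopython 1.88). The script was tested on simulated data.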

Additional observations from a re-analysis of the deposited data

Results flagged for a closer look

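The contrast for Suv39h1/2 differed between the G9a-KO and the control background for 51 of the 83 genes reported by name. The call is by the limma test of the difference itself (adjusted p below 0.05 and a log2 difference of at least 1 in size). Over all genes tested the share called was 2.02%. The values are (TKO minus G9a-KO) minus (Suv39h1/2-DKO minus control) on the log2(TPM + 1) scale, 21 higher and 30 lower. Many of these genes were named because of this difference or of the change in TKO. With 2 libraries a group, no test for a single outlying library was made.

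Among the Mage-a genes the difference was -3.24 for Magea2, -3.12 for Magea3, -2.73 for Magea5, -3.04 for Magea6 and -2.60 for Magea8. For the Xlr genes and their neighbours it was -1.76 for Xlr3a, -1.60 for Xlr3b, -2.77 for Xlr3c, -1.26 for Xlr4a, -1.09 for Xlr4b, -1.58 for Xlr4c, -2.44 for Xlr5a, -2.22 for Xlr5b, -2.89 for Xlr5c, -2.24 for Pnma5 and -2.55 for Gm14685. The other X-linked genes stood at -1.63 for Rhox2a, -1.66 for Rhox5 and -1.63 for Usp26. On chromosome 14 the values were -4.50 for Pnp2, -3.32 for Rpph1, -1.25 for Plac9b, -1.31 for Gata4 and 1.0 for Lgals3. Imprinted genes stood at -1.08 for Cdkn1c, -1.52 for Meg3 and -1.35 for Rian. The remaining lower values were -2.35 for Akr1c21, -1.24 for Bst2, -2.63 for Clec2i and -1.90 for Id2.

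Genes of the 2-cell embryo had higher values, 1.28 for Zscan4a, 1.74 for Zscan4b, 1.91 for Zscan4c, 1.12 for Zscan4d, 2.12 for Zscan4f, 2.61 for Gm2016, 2.38 for Gm5662, 1.46 for Obox4 and 1.75 for Pramel7. Of these, the Zscan4 genes were lower after Suv39h1/2 loss on both backgrounds, and Pramel7 rose in TKO. The other higher values were 2.09 for Calcoco2, 1.39 for Capg, 1.07 for Ckmt1, 1.53 for Clgn, 1.12 for Cobl, 1.36 for Crxos, 1.01 for Gata3, 1.18 for Inhbb, 1.06 for Nupr1, 1.19 for Plekhb1 and 1.75 for Ppp2r2c.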

How the results depend on the processing

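Under a pseudocount of 0.1 TPM the counts rose, in TKO against G9a-KO to 277 higher and 272 lower, in Suv39h1/2-DKO against control to 61 and 132, for the difference to 426, in QKO against G9a;Setdb1-DKO to 431 and 414, and in the Dux-null lines to 134 higher. With only the compared libraries in the fit, Suv39h1/2-DKO against control gave 7 and 22 calls and the Dux-null lines 0 and 2, where 1573 and 1152 genes had an unadjusted p below 0.05 (limma, 2 residual degrees of freedom). Without genes of chromosomes 8 and 14 the Dux-null counts were 57 and 52. Leaving out 1 library at a time gave 64 to 87 higher and 148 to 176 lower in TKO against G9a-KO, 15 to 18 and 48 to 60 in Suv39h1/2-DKO against control, 226 to 281 for the difference, 195 to 280 and 200 to 315 for QKO, and 38 to 85 and 48 to 94 in the Dux-null lines; a lone library was assumed to vary like the other groups. Deviations of same-numbered libraries correlated at 0.46 in TKO and G9a-KO. Over 36 pairs of groups of the first table the correlation ran from -0.06 to 0.62 and was over 0.1 in 25. The labels do not say what the numbers mark, so a replicate block was run only as an alternative, and a shared replicate effect remains possible. A replicate block gave 70 higher and 157 lower, 306 for the difference, and 101 and 109 in the Dux-null lines, where the correlation was -0.43 and the exchanged numbers gave 102 and 103. Of 82 named called genes 58 kept their call in all 11 alternatives of TKO against G9a-KO that tested them. Among the genes reported, the call was lost in 6 alternatives for Tmem254b, in 5 for Cphx2, in 3 each for Dnmt3l, Hist1h3e, Xlr4c and Zscan4d, in 2 each for Zfp951, Hoxa10 and Zscan4a, and in 1 each for Dhrs3, Xlr4a, Zscan4b and Rhox9; none changed direction. Depth is unknown, so counting error could not be given.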
